A study of Mus musculus with 8 samples.

Results

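The 10 genes described here, Irf4, Irf8, Prdm1, Bhlhe40, Nfil3, Bach2, Id3, Tox, Tox2 and Cbfa2t3, encode transcription factors, an inhibitor of transcription factors and a corepressor that act in lymphocyte activation, exhaustion and quiescence. They were taken by gene symbol from a list drawn up with earlier results of these data known, so the number of calls among them is a description. All 10 were among the 23183 gene symbols counted in every library, and all 10 were among the 12239 genes with enough counts to be tested. Bulk mRNA-seq was performed on cultured group 2 innate lymphoid cells (ILC2s) from the lungs of C57BL/6 mice, with 4 libraries treated with 5 µM Yoda1, a chemical agonist of the mechanosensitive cation channel Piezo1, and 4 given the vehicle, 0.1% DMSO. The study's methods give a treatment time of 3 h and describe ILC2s enriched from mice that had received IL-33 and kept in IL-2, IL-7 and IL-33, so both groups were already under activating cytokines. The labels do not say whether the 4 libraries of a group came from separate mice or cultures, and the p-values then measure only the spread between these libraries. The comparison asked which of these factors changed in mRNA level after channel opening.

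In lymphocytes these factors work as opposing groups. IRF4 and IRF8 are related factors induced or maintained by activating signals, BLIMP1 (encoded by Prdm1) and BHLHE40 repress genes of the resting state in effector cells, and BACH2 and ID3 favour quiescence and memory. TOX and TOX2 are HMG-box factors that accumulate in exhausted T cells. NFIL3 is needed early in innate lymphoid cell development, and CBFA2T3 (also called ETO2 or MTG16) is a corepressor that brings histone deacetylases to DNA-bound complexes. In ILC2s, IRF4 is known for its part in type 2 cytokine output and BACH2 as a brake on effector genes. Piezo1 admits calcium, and NFAT is the calcineurin-dependent factor that responds to calcium in lymphocytes.

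Irf8 and Bhlhe40 were higher and Cbfa2t3 was lower in Yoda1-treated ILC2s, and the other 7 genes did not pass the test. Irf8 stood at 227 ± 9.30 CPM (SD, n = 4; CPM is the count scaled to a common library size) with DMSO and 309 ± 16.3 with Yoda1. Cbfa2t3 fell from 2.39 ± 0.0691 to 0.967 ± 0.345 CPM. Of all 12239 genes tested with edgeR's quasi-likelihood test at a Benjamini-Hochberg adjusted p of 0.05, 10.9% passed, 6.04% as higher (739 genes) and 4.84% as lower (592 genes). The split depended on scaling: it was 553 higher and 809 lower with library totals alone, and 505 and 958 with upper-quartile factors. The 3 called members of 10 are too few for a share to be read against that background. The median log2 fold change was 0.049 over the 10 members and -0.0053 over all tested genes. In 4 members the 4 Yoda1 libraries did not overlap the 4 DMSO libraries, which was the case for 15.5% of all tested genes.

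**Figure D1:**
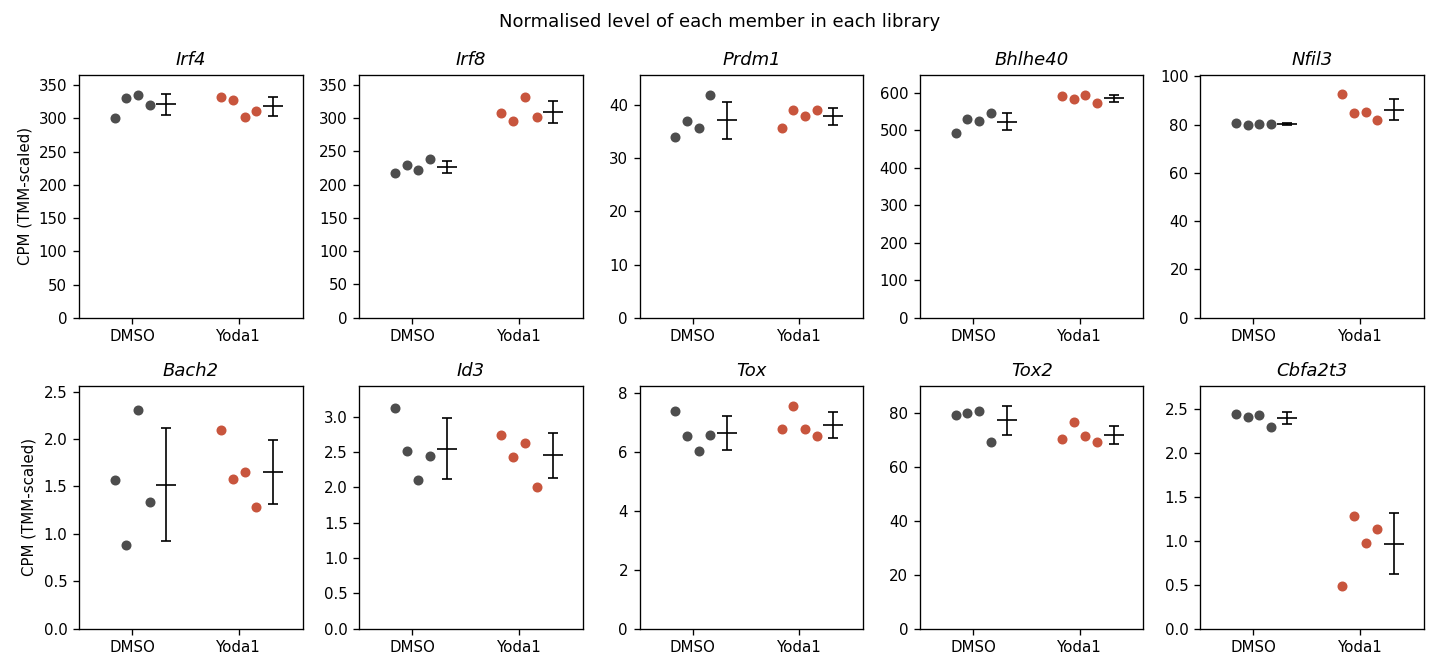
CPM of each of the 10 genes in each library (points, DMSO grey and Yoda1 red), with the mean and SD of 4 libraries beside them and each vertical axis starting at 0. The 2 groups separate for Irf8, Bhlhe40, Nfil3 and Cbfa2t3, with Irf8 between 218 and 239 CPM with DMSO and between 295 and 332 CPM with Yoda1.

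To show the start regions of the called genes, the promoters of Irf8 and Cbfa2t3 are printed with that of Irf4, the relative of Irf8 that was not called. Each is the stretch of up to 250 bases before the gene's start, written 5′ to 3′ on the gene's strand, from RefSeq on GRCm38.p6. Irf8 lies at chr8:120736108-120736357 on the plus strand, Irf4 at chr13:30748983-30749225 on the plus strand and Cbfa2t3 at chr8:122699110-122699359 on the minus strand. Capitals mark GGAAA, the core of an NFAT site, or TGACG, a part of a cAMP response element, found on either strand.
Irf8: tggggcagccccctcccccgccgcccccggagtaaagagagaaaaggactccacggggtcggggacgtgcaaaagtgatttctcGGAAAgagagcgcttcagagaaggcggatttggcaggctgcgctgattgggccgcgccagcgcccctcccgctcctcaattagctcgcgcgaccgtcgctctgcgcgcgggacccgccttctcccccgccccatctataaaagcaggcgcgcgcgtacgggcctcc
Irf4: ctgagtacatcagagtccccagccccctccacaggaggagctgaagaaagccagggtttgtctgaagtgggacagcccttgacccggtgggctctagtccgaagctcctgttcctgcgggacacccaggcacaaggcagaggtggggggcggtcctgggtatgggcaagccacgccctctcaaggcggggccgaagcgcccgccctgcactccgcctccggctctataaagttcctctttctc
Cbfa2t3: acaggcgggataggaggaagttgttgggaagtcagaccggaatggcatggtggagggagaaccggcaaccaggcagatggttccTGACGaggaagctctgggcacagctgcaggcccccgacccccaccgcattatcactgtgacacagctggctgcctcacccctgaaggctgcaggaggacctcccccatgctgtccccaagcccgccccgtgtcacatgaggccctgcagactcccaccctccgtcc

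The Irf8 window held 1 GGAAA and the Cbfa2t3 window held 1 TGACG, while the Irf4 window held neither. GGAAA or its reverse was present in 55.6% of 27025 promoters in the table and TGACG or its reverse in 17.8%, so a match is common and is given only as a description. Promoters of 8 of the 10 members were matched, and those of Bhlhe40 and Tox were not used here. TGACG or its reverse was found once each in Prdm1, Nfil3, Id3 and Cbfa2t3, and GGAAA or its reverse once each in Irf8 and Bach2. The RefSeq starts used for Prdm1, Bach2 and Id3 lie inside the GENCODE spans of these genes, so their windows fall wholly within them. The windows of Irf4, Nfil3 and Tox2 reach in part into the annotated gene, and matches were counted over all 250 bases. The AP-1 letters TGANTCA (6.85% of promoters) were found once, in Prdm1, where they did not overlap the TGACG match. Neither CACGTG, the E-box bound by BHLHE40 (6.04% of promoters), nor GTGGGCG, an Egr core (7.04%), was found in any of the 8.

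Among the activation-induced factors, Irf8 rose. Irf8 (ENSMUSG00000041515.10) spans chr8:120736358-120756694 on the plus strand of GRCm38. Its level was 218, 229, 222 and 239 CPM in DMSO libraries 1 to 4, and 307, 295, 332 and 301 CPM in Yoda1 libraries 1 to 4. Every Yoda1 library stood above every DMSO library. The log2 fold change was 0.45 with a standard error of 0.040 (95% interval 0.36 to 0.53, edgeR adjusted p = 2.04e-09), a 1.36-fold increase, at rank 181 from the highest of all tested genes. Between 3234 and 4181 reads were counted in each DMSO library and between 3805 and 5858 in each Yoda1 library, so counting error was 1.67% and 1.45% of the mean, under the spread between libraries of 4.10% and 5.28%.

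Irf4 (ENSMUSG00000021356.10), on chr13:30749226-30766976, gave no such difference. It was at 299.9, 330.3, 335 and 319 CPM with DMSO and at 332, 328, 302 and 311 CPM with Yoda1. The ranges of the groups lay almost on top of each other. The log2 fold change was -0.014 with a standard error of 0.039 (edgeR adjusted p = 0.871), and its 95% interval of -0.094 to 0.067 leaves out a change of the size seen in Irf8.

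The effector repressors were Prdm1 and Bhlhe40. Bhlhe40 (ENSMUSG00000030103.11, chr6:108660629-108666925) encodes a basic helix-loop-helix repressor that supports cytokine production in activated lymphocytes. It was at 493, 531, 525 and 546 CPM with DMSO and at 592, 584, 594 and 573 CPM with Yoda1. The groups did not overlap, and the lowest Yoda1 library was replicate 4. The log2 fold change was 0.16 with a standard error of 0.036 (95% interval 0.088 to 0.23, edgeR adjusted p = 0.00295), an increase of 11.8% in the fitted level. An antisense transcript, 0610040F04Rik, shares 118 bp of exon with it and had between 0 and 5 counts per library, against 7331 or more for Bhlhe40. The strand setting of the counting is not given in the sources used here.

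Prdm1 (ENSMUSG00000038151.13, chr10:44437177-44528501) was at 33.9, 37.0, 35.7 and 41.9 CPM with DMSO and at 35.6, 39.1, 38.0 and 39.0 CPM with Yoda1. All 4 Yoda1 libraries fell inside the DMSO range. Its log2 fold change was 0.038 with a standard error of 0.060 (95% interval -0.085 to 0.16, edgeR adjusted p = 0.754).

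Nfil3 (ENSMUSG00000056749.7, chr13:52967209-52981073), the innate lymphoid developmental factor, was at 80.7, 79.7, 80.3 and 80.2 CPM with DMSO and at 92.5, 85.0, 85.4 and 81.9 CPM with Yoda1. The groups did not overlap, but the gap between the lowest Yoda1 and the highest DMSO library was small. The log2 fold change of 0.10 with a standard error of 0.043 gave an unadjusted p of 0.0266 and did not pass the threshold (edgeR adjusted p = 0.136). The DMSO libraries differed by 0.514% of their mean (SD), less than the 2.80% that counting error alone gives, so their closeness says little of the true spread.

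The quiescence factors Bach2 and Id3 were near the lower end of the tested range. Bach2 (ENSMUSG00000040270.16, chr4:32238804-32586108) had 25, 16, 36 and 18 counts in the DMSO libraries and 26, 26, 22 and 25 in the Yoda1 libraries. Id3 (ENSMUSG00000007872.3, chr4:136143497-136145755), an inhibitor that binds E proteins and keeps them off DNA, had 50, 46, 33 and 33 counts with DMSO and 34, 40, 35 and 39 with Yoda1. Both pairs of groups overlapped. For Bach2 the log2 fold change was 0.11 with a 95% interval of -0.44 to 0.65 (edgeR adjusted p = 0.855). For Id3 it was -0.080 with an interval of -0.47 to 0.31 (edgeR adjusted p = 0.846). A rise of the size seen in Irf8 lies inside the Bach2 interval, and a fall of that size just outside it. For Id3, a fall of that size lies just inside the interval and a rise outside it. A rise in Bach2 or a fall in Id3 of that size is therefore not left out at this depth. Bach2 shares 537 bp of exon with an antisense transcript, Bach2os, which had at most 1 count in any library.

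The exhaustion-associated pair gave no call in either direction. Tox2 (ENSMUSG00000074607.11, chr2:163203125-163324170) was at 79.3, 80.0, 80.7 and 69.1 CPM with DMSO and at 70.2, 76.5, 71.4 and 69.2 CPM with Yoda1. The DMSO libraries 1 to 3 stood above all Yoda1 libraries and DMSO library 4 stood below them all. The log2 fold change was -0.11 with a standard error of 0.049 (unadjusted p = 0.0362, edgeR adjusted p = 0.165). Without DMSO replicate 4 it was -0.16 and passed the threshold (edgeR adjusted p = 0.0363), so this 1 library decided the call.

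Tox (ENSMUSG00000041272.11, chr4:6686353-6991557) was at 7.39, 6.52, 6.01 and 6.58 CPM with DMSO and at 6.78, 7.55, 6.75 and 6.53 CPM with Yoda1, from 84 to 127 counts per library. The groups overlapped over most of their range. Its log2 fold change was 0.059 with a 95% interval of -0.17 to 0.29 (edgeR adjusted p = 0.801). An antisense gene, Gm11802, overlaps 260 bp of its exons and was not analysed here.

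Cbfa2t3, the corepressor of the group, had the largest fold change of the 10 genes. Cbfa2t3 (ENSMUSG00000006362.16) spans chr8:122625141-122699109 on the minus strand. It was at 2.44, 2.41, 2.43 and 2.29 CPM with DMSO and at 0.484, 1.28, 0.975 and 1.13 CPM with Yoda1. Every Yoda1 library was below every DMSO library, and Yoda1 library 1 was the lowest. These values rest on 39, 44, 38 and 31 counts with DMSO and 6, 21, 13 and 22 counts with Yoda1. The log2 fold change was -1.25 with a standard error of 0.24 (95% interval -1.75 to -0.76, edgeR adjusted p = 0.000681), so that the fitted level fell by 58.0%, at rank 5 from the lowest of all tested genes. Counting error alone is 16.2% of the mean with DMSO and 25.4% with Yoda1, and the SD of the DMSO libraries, 2.89% of the mean, was under it. Without Yoda1 replicate 1 the log2 fold change was -1.07 (edgeR adjusted p = 0.00497). An antisense gene, Gm10612, overlaps 295 bp of Cbfa2t3 exons and was not analysed here, and without a stated strand setting reads of the pair cannot be told apart.

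**Figure D2:**
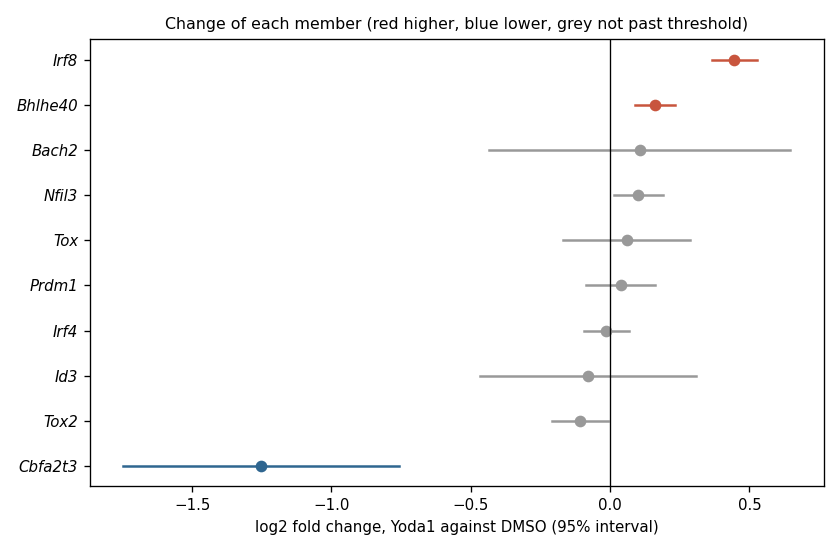
Log2 fold change of each gene, Yoda1 against DMSO, with its 95% interval from edgeR (n = 4 per group), red where higher, blue where lower and grey where the adjusted p was over 0.05. Irf8 (0.45) and Bhlhe40 (0.16) lie to the right of 0 and Cbfa2t3 (-1.25) to the left, and the widest grey interval is that of Bach2.

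Irf8 and Cbfa2t3 lie on the same chromosome, 1868.4 kb apart, and changed in opposite directions. Piezo1, which encodes the channel that Yoda1 opens, is 73.8 kb from Cbfa2t3 and differed by 0.056 on the log2 scale (edgeR adjusted p = 0.407). Within 250 kb of Cbfa2t3, 14 other genes were tested, of which 1 was higher and 1 lower (10.9% of all tested genes were called). These were Trappc2l (0.27, edgeR adjusted p = 0.0237) and Acsf3 (-0.37, edgeR adjusted p = 0.00985). The 4 tested neighbours of Irf8 had edgeR adjusted p-values from 0.170 to 0.555 and the 3 of Bhlhe40 from 0.0904 to 0.153. The distance and the neighbouring genes were chosen after their values had been seen.

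Irf8 is also a defining factor of dendritic cells, B cells and macrophages, so the markers of these cells were examined in the same libraries. Of 7 B cell markers, Ms4a1 and Pax5 had no more than 3 counts in any library, and Pax5 was at 0 throughout. The summed level ranged from 6.80 to 8.20 CPM with DMSO and from 6.45 to 9.07 CPM with Yoda1. Most of it came from Cd79b (5.97 ± 0.762 and 6.30 ± 0.780 CPM, 70 to 128 counts per library). Fcmr had 5 to 17 counts per library, and neither gene was called. Of 8 macrophage markers, 6 had no more than 3 counts in any library, and the sums were 3.39 to 3.92 and 2.37 to 3.65 CPM. Most of this came from Cd68 (2.96 ± 0.220 and 2.64 ± 0.594 CPM, 29 to 62 counts per library), which was not called. Summed dendritic cell markers ranged from 175 to 189 CPM and from 181 to 202 CPM, most of it from H2-Ab1 (155 ± 7.20 and 156 ± 9.66 CPM). Of the 8 dendritic cell genes 4 were tested, with 1 higher and 1 lower (10.9% of all tested genes were called). Mean Xcr1 rose from 16.5 CPM with DMSO to 25.5 CPM with Yoda1 (log2 fold change 0.63, edgeR adjusted p = 2.07e-07). Mean Zbtb46 fell from 5.39 to 3.95 CPM (-0.44, edgeR adjusted p = 0.0335). Clec9a and Cd209a had no more than 3 counts in any library. The part of these cells in the Irf8 and Cbfa2t3 results was not tested.

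Most markers of the labelled cell type were abundant. The lowest were Il17rb (14.9 ± 1.69 CPM with DMSO, 13.4 ± 1.18 with Yoda1) and Klrg1 (69.9 ± 2.87 and 71.3 ± 3.68 CPM). All 15 ILC2 markers were tested, with 7 higher and Icos lower (10.9% of all tested genes were called). Their sum was 18763 to 19281 CPM with DMSO and 21066 to 21463 CPM with Yoda1. The largest rises in CPM were those of the cytokine genes Il13 (5431 ± 187 to 6667 ± 114) and Il5 (3337 ± 80.6 to 3672 ± 92.5). The transcription regulators Gata3, Rora and Id2 had log2 fold changes of 0.00020, 0.034 and -0.023 and were not called. All 8 markers of NK cells or ILC1s were tested, and 3 were higher, Eomes, Prf1 and Tbx21 (10.9% of all tested genes were called). Tbx21 rose from 20.9 ± 2.50 to 32.1 ± 1.65 CPM (log2 fold change 0.62, edgeR adjusted p = 3.86e-07). The sum of these markers was 808 to 893 CPM with DMSO and 869 to 939 CPM with Yoda1. Most of it came from Prf1 (385 ± 22.8 and 423 ± 8.85 CPM) and Gzma (344 ± 18.7 and 361 ± 17.3 CPM). Klra8, Klrb1c and Ncr1 were at 8.58, 6.07 and 4.42 CPM with DMSO and 9.89, 5.28 and 3.70 CPM with Yoda1. None of these passed the edgeR test. Mast cell or basophil markers were at 953 to 1124 CPM and 1133 to 1218 CPM. Nearly all of it came from Gzmb (939 ± 73.7 and 1091 ± 39.3 CPM), which was called higher, and from Kit. Of the 8 genes of this list 4 were tested, and Mcpt8, Cpa3 and Kit were not called. Mcpt8 and Cpa3 each had 23 to 45 counts per library, while Fcer1a, Mcpt4 and Prss34 had no more than 3 in any library. T cell markers summed to 70.5 to 78.1 CPM and 76.0 to 86.1 CPM. Prf1, Gzmb, Eomes and Tbx21 are also induced within activated lymphocytes, and the part of these cells in the results was not tested. In bulk libraries, fewer cells of a type and less RNA per cell cannot be told apart.

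Levels between genes were compared per kb of annotated exon. With DMSO the order was Bhlhe40 at 111 CPM per kb, Irf4 at 65.5, Nfil3 at 39.6, Irf8 at 32.2, Tox2 at 22.7, Prdm1 at 6.65, Id3 at 1.42, Tox at 0.870, Cbfa2t3 at 0.286 and Bach2 at 0.153 CPM per kb. No neighbours in this order overlapped between the DMSO libraries. With Yoda1, Irf8 at 43.8 CPM per kb took place 3, next to Nfil3 at 42.5, whose libraries overlapped it, and Cbfa2t3 at 0.116 stood below Bach2 at 0.166, again with overlap. The place of Irf8 depends on the length used: over the longest annotated transcript it was at 65.4 CPM per kb with DMSO, in place 3 and close to Irf4 at 67.4. Bhlhe40 and Irf4 held the upper 2 places and Cbfa2t3 and Bach2 the lower 2 with DMSO under both lengths.

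**Figure D3:**
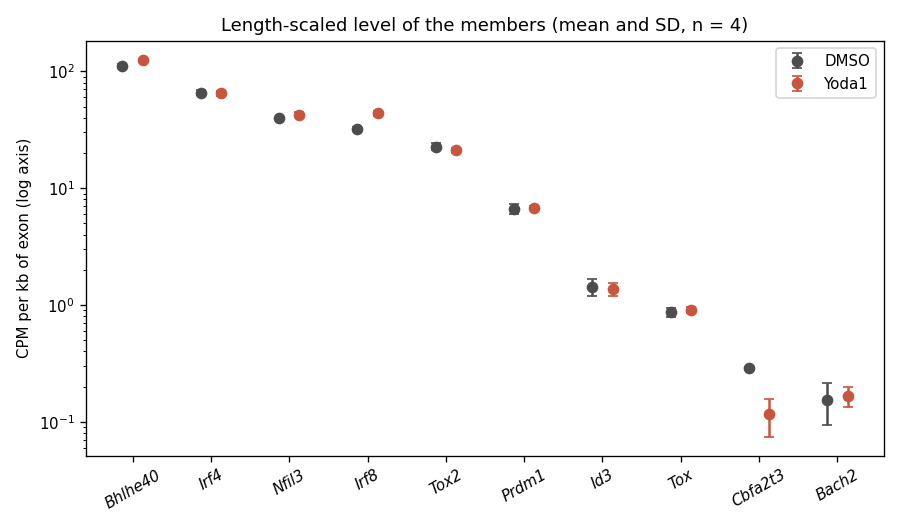
Length-scaled level of each gene (CPM per kb of exon, log axis) with DMSO (grey) and Yoda1 (red), as mean and SD of 4 libraries. The 10 genes span from 111 CPM per kb for Bhlhe40 to 0.153 for Bach2 with DMSO, and Cbfa2t3 drops below Bach2 with Yoda1.

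Ratios of 2 genes within a library do not depend on scaling, and 4 pairs of factors that oppose or resemble each other were compared by a two-sided exact permutation test. The log2 ratio of Irf4 to Irf8 counts was 0.46, 0.53, 0.60 and 0.42 with DMSO and 0.11, 0.15, -0.14 and 0.046 with Yoda1. All DMSO libraries thus held more Irf4 than Irf8 reads, and with Yoda1 the counts were about equal, with Irf8 ahead in replicate 3. The mean moved from 0.50 ± 0.078 to 0.042 ± 0.13 (SD, n = 4), a difference of -0.46 (exact permutation test, p = 0.0286, adjusted over the 4 pairs 0.114). That p is the smallest 4 libraries against 4 can give, and it did not pass 0.05 after adjustment.

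In the other pairs the groups overlapped. Tox2 to Tox went from 3.54 ± 0.17 to 3.37 ± 0.030 on the log2 scale (difference -0.17, exact permutation p = 0.0857, adjusted 0.171). Prdm1 to Bach2 went from 4.66 ± 0.62 to 4.51 ± 0.35 (difference -0.15, exact permutation p = 0.743, adjusted 0.886). Id3 to Id2, its abundant relative and an ILC-defining inhibitor, went from -8.52 ± 0.22 to -8.55 ± 0.21 (difference -0.028, exact permutation p = 0.886, adjusted 0.886). Id2 reads therefore outnumbered Id3 reads greatly in every library of both groups.

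**Figure D4:**
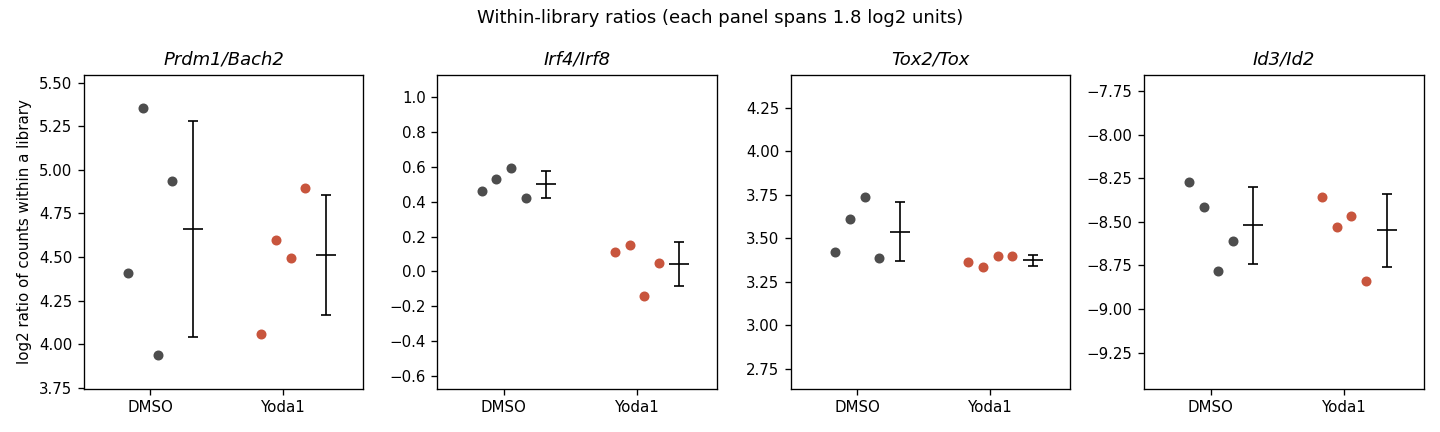
Log2 ratio of the counts of 2 genes within each library for 4 pairs (points, DMSO grey and Yoda1 red), with mean and SD of 4 libraries; each panel spans the same height on the log2 axis. Only the Irf4 to Irf8 panel has groups that do not overlap, from 0.42 to 0.60 with DMSO and from -0.14 to 0.15 with Yoda1.

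Most relatives of these factors did not pass the test. Of 27 family relatives 24 were tested, 2 were higher and 1 was lower (12.5% called, against 10.9% of all tested genes), with a median log2 fold change of 0.043. Irf1, an interferon-inducible member of the Irf family, rose from 539 ± 12 to 596 ± 10.5 CPM, with no overlap between groups. Its log2 fold change was 0.14 (SE 0.034, edgeR adjusted p = 0.00478). Irf2, which often acts against Irf1, had a log2 fold change of 0.019. Prdm10 rose from 7.84 ± 1.0 to 10.4 ± 1.83 CPM (0.40, SE 0.12, edgeR adjusted p = 0.0241), a call that was lost without DMSO replicate 1 (0.32, edgeR adjusted p = 0.0649), without DMSO replicate 2 (0.38, edgeR adjusted p = 0.0809) and without Yoda1 replicate 1 (0.29, edgeR adjusted p = 0.128), and also with the replicate number as a block (0.40, edgeR adjusted p = 0.0655).

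Cbfa2t3 has 2 close relatives, Cbfa2t2 and Runx1t1. Cbfa2t2 was at 32.7 ± 2.23 and 33.7 ± 3.20 CPM (log2 fold change 0.047, edgeR adjusted p = 0.721). Runx1t1 fell from 4.01 ± 1.06 to 2.74 ± 0.228 CPM (log2 fold change -0.56, edgeR adjusted p = 0.0415), and its groups overlapped. That call held in 5 of 15 alternatives and was lost with any single library other than DMSO replicate 1 left out (edgeR adjusted p from 0.0594 to 0.248), the value without DMSO replicate 2 being -0.38. Bach1, Id2 and Tox4 had log2 fold changes of 0.062, -0.023 and 0.050 and did not pass the edgeR test, and Bhlhe41 had too few counts, 4 to 11 per library, to be tested.

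Of 25 partners and cofactors 23 were tested, with 2 higher and 2 lower (17.4% called, against 10.9% of all tested genes). Their median log2 fold change was 0.024. Gfi1, a zinc-finger repressor required for ILC2s, rose from 44.2 ± 0.700 to 64.5 ± 3.0 CPM (log2 fold change 0.55, SE 0.048, edgeR adjusted p = 1.42e-09), with no overlap. Maff, a small Maf protein that pairs with BACH factors, rose from 10.2 ± 0.830 to 12.5 ± 1.28 CPM (0.32, edgeR adjusted p = 0.0293), a call held in 9 of 15 alternatives. It was lost without DMSO replicate 2 (0.26), DMSO replicate 3 (0.32), Yoda1 replicate 2 (0.25) or Yoda1 replicate 4 (0.33), with edgeR adjusted p-values from 0.0511 to 0.132. Lmo2, a bridging protein of the complexes in which CBFA2T3 acts, fell from 4.56 ± 0.488 to 3.07 ± 0.325 CPM (-0.55, edgeR adjusted p = 0.0166), and without Yoda1 replicate 3 this was -0.49 (edgeR adjusted p = 0.0502). Tle3, a Groucho-family corepressor, fell from 393 ± 19.0 to 341 ± 13.7 CPM (-0.21, SE 0.039, edgeR adjusted p = 0.000511).

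Among genes of the exhaustion programme for which the TOX factors are known, 10 of 19 rose (52.6% called, against 10.9% of all tested genes). The list was drawn up with earlier results of these data known, so this share is a description. By edgeR 0 were lower at the adjusted threshold and 1 at an unadjusted p under 0.05, 0 were lower by DESeq2 and 0 by limma-voom, and the median log2 fold change was 0.30. The gene with the unadjusted call was Ikzf2 (log2 fold change -0.17, edgeR adjusted p = 0.131), named after its value was seen. The largest rises were those of the calcium-inducible nuclear receptors Nr4a2, from 5.6 ± 1.54 to 24.0 ± 1.37 CPM (2.11, SE 0.12, edgeR adjusted p = 2.34e-11), and Nr4a3, from 22.6 ± 4.79 to 63.7 ± 3.66 CPM (1.5, SE 0.13, edgeR adjusted p = 0.000308). In both the groups did not overlap. Members of this list are also immediate early and activation genes, and Eomes is in the NK cell list too.

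Of 15 quiescence and memory genes, 1 was higher and 3 were lower (26.7% called, against 10.9% of all tested genes). Their median log2 fold change was -0.081. Klf2, a factor of resting and recirculating lymphocytes, rose from 7.5 ± 0.812 to 12 ± 0.608 CPM (0.67, SE 0.098, edgeR adjusted p = 1.89e-05). The related HMG factors Tcf7 and Lef1 fell. Tcf7 went from 7.78 ± 0.315 to 5.80 ± 0.609 CPM (-0.42, SE 0.11, edgeR adjusted p = 0.0134), and without Yoda1 replicate 1 it did not pass (-0.36, edgeR adjusted p = 0.0559). Lef1 went from 64.2 ± 4.37 to 48.9 ± 4.16 CPM (-0.39, SE 0.058, edgeR adjusted p = 3.07e-05). Bach2 and Id3, the quiescence factors among the 10 genes, did not pass the test.

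**Figure D5:**
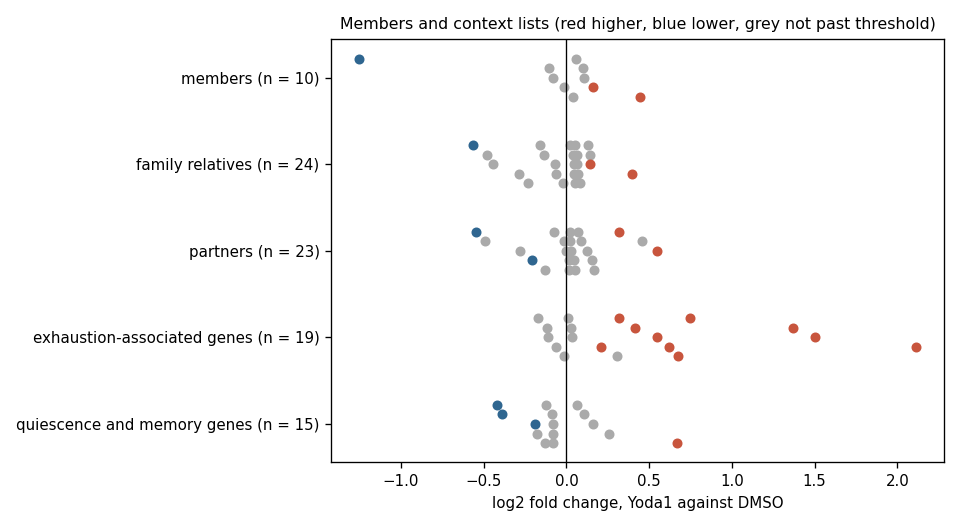
Log2 fold change (Yoda1 against DMSO) of every tested gene in the 10 members and the 4 related lists, 1 point a gene, red where higher and blue where lower at an edgeR adjusted p of 0.05. The exhaustion-associated genes hold 10 red points of 19 and no blue one, and the 10 members hold 2 red and 1 blue. Over all tested genes 10.9% were called, and the members and lists were chosen with earlier results of these data known.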

How the data were processed

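Poly(A)-selected mRNA of 8 libraries (4 DMSO, 4 Yoda1) was sequenced on an Illumina NovaSeq instrument after preparation with a directional kit. For each library, the authors deposited whole-number counts of reads on each gene symbol, neither normalized nor pooled. Quality was checked with FastQC, reads were handled by the study with FASTX Trimmer and BBMap and expression was derived with Cufflinks, and the submitters' processing notes name TopHat and mm10. How strand was treated, and on which annotation reads were counted, is not given in the sources used here. The study's own test, Cuffdiff, needs alignments and was not used.

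Total counts ran from 12438009 to 19534653 per library, so that 1 count was 0.0514 to 0.0807 CPM. The floor of 3 counts covers counting error only. The 95% intervals from edgeR include the spread between these libraries as well as counting error. Genes were filtered with filterByExpr (minimum count 10, minimum total 15), scaled by TMM (factors 0.988 to 1.01) and compared in R 4.3.3 with edgeR 4.0.16 (quasi-likelihood test, robust fit, Benjamini-Hochberg over 12239 genes, threshold 0.05). Ratios of 2 genes used counts plus 0.5 and a two-sided exact permutation test. Within groups every pair of libraries differed by more than sampling noise (chi-square per gene 2.03 to 6.94). Positions, exon lengths and overlaps came from GENCODE M21 (GRCm38), promoters from RefSeq (GRCm38.p6). Methods were run on simulated data with planted changes larger than those of Irf8 and Bhlhe40, so recovery of changes of that size was not tested.

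The members and gene lists were chosen with earlier results of these data known. From the marker lists, 1 gene is not reported here and was left out of its list's sum. Named genes are the 10 members, 7 close relatives (Irf1, Irf2, Bach1, Bhlhe41, Id2, Cbfa2t2, Tox4) and, in each list, up to 2 of the largest rises and up to 2 of the largest falls past the threshold. Alternatives were DESeq2 1.42.0, limma-voom (limma 3.58.1), other scalings and filters, a replicate block and each library left out.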

Additional observations from a re-analysis of the deposited data

Results flagged for a closer look

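Tox2 in DMSO replicate 4, at 69.1 CPM, stood apart from the other DMSO libraries, the nearest of which was at 79.3 CPM; the gap was 0.880 of the group's range. It was the 1 value found to stand apart among 28 groups of 4 libraries examined (10 genes and 4 ratios in each group), where chance gives about 1.4.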

How the results depend on the processing

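The calls of Irf8 and Bhlhe40 held in all 15 alternatives, with log2 fold changes of 0.41 to 0.47 and 0.13 to 0.18. That of Cbfa2t3 held in the 14 that tested it, from -1.40 to -1.07, and with at least 10 counts in every sample it was not tested, which leaves 0 members lower. Counts over all genes moved from 739 higher and 592 lower to 505 and 958 with upper-quartile factors, to 625 and 372 with DESeq2, and to between 519 and 807 higher and between 367 and 677 lower with a library left out. Of the 149 alternative values of the members' fold changes, 148 kept their side of the threshold. The adjusted p-values of the gene pair ratios could hardly pass 0.05 in this design and say nothing of stability. With a library left out the difference was -0.49 to -0.40 for Irf4 to Irf8 and -0.39 to 0.083 for Prdm1 to Bach2. Depth limits Bach2, Id3 and Cbfa2t3, with 6 to 50 counts per library. Where counts changed below, the cause was not tested unless the setting itself shows it.

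Family relatives called lower were 0 with DESeq2 and 0 with limma-voom. Partners called higher were 1 with DESeq2 and 4 without a filter on low counts, and those called lower were 4 without the filter and 4 with upper-quartile factors. Quiescence and memory genes called lower were 5 with upper-quartile factors, and those called higher were 2 without the filter, which also gave 1 exhaustion-associated gene lower. With each library left out, the members called lower were 1 to 2, family relatives 1 to 2 higher and 0 to 1 lower, partners 1 to 4 higher and 2 to 3 lower, exhaustion-associated genes 9 to 11 higher and 0 to 1 lower, and quiescence and memory genes 1 to 2 higher and 2 to 4 lower. The members called higher were 2 each time.

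Replicate numbers are shared between the groups in the labels. Deviations of same-numbered libraries from their group mean correlated weakly (0.048, 0.071, -0.028 and 0.00023), and those of other pairs from -0.12 to 0.077. Such values, from 4 libraries a group, cannot show whether same-numbered libraries shared a mouse or culture, and the labels do not say. Not every library correlated best with its own number. With the replicate block 548 genes were higher and 418 lower, and the members' calls were unchanged at 2 higher and 1 lower. The block gave 1 family relative higher (the Prdm10 call was lost) and 0 lower, 1 partner higher, and 1 exhaustion-associated gene lower (Ikzf2, log2 fold change -0.18, edgeR adjusted p = 0.0434).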
